A study of Homo sapiens with 15 samples.

Results

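The rhomboid superfamily was examined in clones of HEK293T, a human embryonic kidney cell line, because RHBDD2 belongs to it and was the gene targeted in one of the clones. The genes were chosen by name as the rhomboid and derlin genes RHBDD1, RHBDD2, RHBDD3, RHBDF1, RHBDF2, RHBDL1, PARL, DERL1, DERL2 and DERL3, which makes 10 of the 58735 genes measured. All 10 were among the 16175 genes abundant enough to be tested, at 0.5 FPKM or more in at least 3 libraries. FPKM is the number of sequenced fragments scaled to exon length and to the size of the library, so it is a level per length. The question was whether RHBDD2 RNA fell in the clone made against it, and whether any of the 9 relatives rose as it fell.

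Each clone carried Cas9 and a single guide RNA delivered by a lentivirus, was selected with puromycin and was grown out by limiting dilution. The groups were RHBDD2-CKO, MAGI2-CKO, C9orf89-CKO and MLPH-CKO, each named for its targeted gene, and Non-target, a clone that received a guide without a target. Every group was 1 clone in 3 culture wells, with 15 libraries in all and 15517856 to 19489918 fragments on genes per library. No drug was named for the sequenced cells. Replicate error is therefore the spread between wells of a clone, and a difference between clones may be due to the targeted gene or to the clone, which cannot be told apart. The 4 comparisons with Non-target share its 3 libraries.

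Rhomboids are proteins that sit in membranes with several transmembrane segments. The active ones are serine proteases that cut other proteins within the membrane, and the inactive ones bind membrane proteins and steer their traffic or their breakdown. Derlins share the rhomboid fold without the protease activity and help to draw misfolded proteins out of the endoplasmic reticulum for destruction by the proteasome, which is called ER-associated degradation (ERAD).

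The guide used for RHBDD2 is shown with the exon end it matches. The levels below are per gene and do not separate transcripts with and without that site. Both are written 5′ to 3′. Capitals in the guide mark the bases that pair with exon 1, and capitals in the exon mark the same bases on the gene's strand.
RHBDD2 guide: gctcacCTTGCCAGTTGCGA
RHBDD2 exon 1, last 30 bases: tgaagtccgaggccctTCGCAACTGGCAAG
RHBDD2 (ENSG00000005486) lies on the plus strand of chromosome 7 from 75842602 to 75888926 in GENCODE v29 (GRCh38). The exon bases shown are chr7:75879231-75879260 and end exon 1 of a coding transcript with 4 exons. Of the 20 guide bases, 14 pair with the exon and the other 6 fall past its end, where the intron sequence was not used here. The 3 exon bases before the capitals give the guide its AGG motif on the opposite strand. Cas9 cuts 3 bases from this motif, which places the cut between bases 75879249 and 75879250, after 167 of the 1092 coding bases of the transcript. The site was found in 5 of the 9 annotated RHBDD2 transcripts. In the annotated transcripts of the 9 relatives, read on both strands next to an NGG motif, the closest match to this guide had 8 to 10 mismatches, and the guides of the other 4 groups had 6 to 10 mismatches in RHBDD2.

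Before the levels are compared, one feature of the libraries matters. Library 1 stood apart from libraries 2 and 3 in every group. The mean chi-square per gene, which is about 1 for counting noise alone, was 14.6 to 24.8 for pairs with library 1 and 2.40 to 6.54 between libraries 2 and 3. RHBDD2, RHBDD3, RHBDF1 and RHBDF2 were lowest in library 1 in all 5 groups, whereas RHBDD1, RHBDL1, PARL, DERL1 and DERL3 were lowest there in 2 groups each and DERL2 in 3. Results are therefore also given with all 5 libraries numbered 1 left out, a choice made after seeing the data.

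RHBDD2 was the most abundant of the 10 genes in Non-target. Its level there was 27.4, 38.1 and 34.9 FPKM in libraries 1 to 3. In RHBDD2-CKO it was 11.2, 13.5 and 12.4 FPKM. The groups did not overlap, and the highest value of the clone was below the lowest value of Non-target. The mean was 12.4 ± 1.18 FPKM in RHBDD2-CKO and 33.5 ± 5.50 FPKM in Non-target (SD, n = 3), a fall to 0.374 of the control (95% confidence interval 0.304 to 0.459). On the log2 scale RHBDD2 fell by 1.42 (SE 0.14, adjusted p = 7.56e-06 by limma over all genes tested), and with the libraries numbered 1 left out it fell by 1.49 (adjusted p = 2.11e-05). The exact two-sided permutation test on FPKM gave p = 0.1, the smallest value that 3 libraries against 3 can give. The remaining RNA amounted to 36.9% of the Non-target mean. In bulk RNA, fewer cells with the transcript and less transcript per cell cannot be told apart, although the cells were grown from 1 clone. Protein is a different measure, and the paper reports its loss by western blot in the RHBDD2-CKO clone it used.

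RHBDD2 was low in a second clone, MAGI2-CKO, which carried no guide against it. Its level there was 11.7, 13.8 and 16.0 FPKM, with a mean of 13.8 ± 2.15 FPKM (SD, n = 3), or 41.3% of the Non-target mean. All 3 values lay below every Non-target library and overlapped those of RHBDD2-CKO. Against Non-target the fall was 1.27 on the log2 scale, with an SE of 0.14 (adjusted p = 1.55e-05). Between RHBDD2-CKO and MAGI2-CKO the difference in RHBDD2 was −0.15 on the log2 scale (adjusted p = 0.405), with a 95% confidence interval for the fold of 0.732 to 1.11.

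C9orf89-CKO and MLPH-CKO had intermediate levels of RHBDD2. The gene was at 23.2, 28.2 and 26.9 FPKM in C9orf89-CKO and at 23.2, 27.1 and 26.3 FPKM in MLPH-CKO. The first clone overlapped Non-target, and the second lay just below it. The differences from Non-target, −0.35 (adjusted p = 0.0794) and −0.38 (adjusted p = 0.0523) on the log2 scale, did not pass the threshold. With the libraries numbered 1 left out they were −0.41 (adjusted p = 0.00812) and −0.45 (adjusted p = 0.00421) and passed. With the replicate number as a block they also passed (−0.35 and −0.38, adjusted p = 0.00236 and 0.00119). RHBDD2-CKO lay below both clones, by −1.07 and −1.04 on the log2 scale (adjusted p = 7.45e-05 for each), and so did MAGI2-CKO, by −0.92 (adjusted p = 0.000391) and −0.89 (adjusted p = 0.000523). In order of the mean, Non-target was followed by C9orf89-CKO, MLPH-CKO, MAGI2-CKO and RHBDD2-CKO. Of the neighbours in that order, C9orf89-CKO and MLPH-CKO overlapped and were not tested, MAGI2-CKO and RHBDD2-CKO did not differ beyond their spread, and MLPH-CKO and MAGI2-CKO did.

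**Figure D1:**
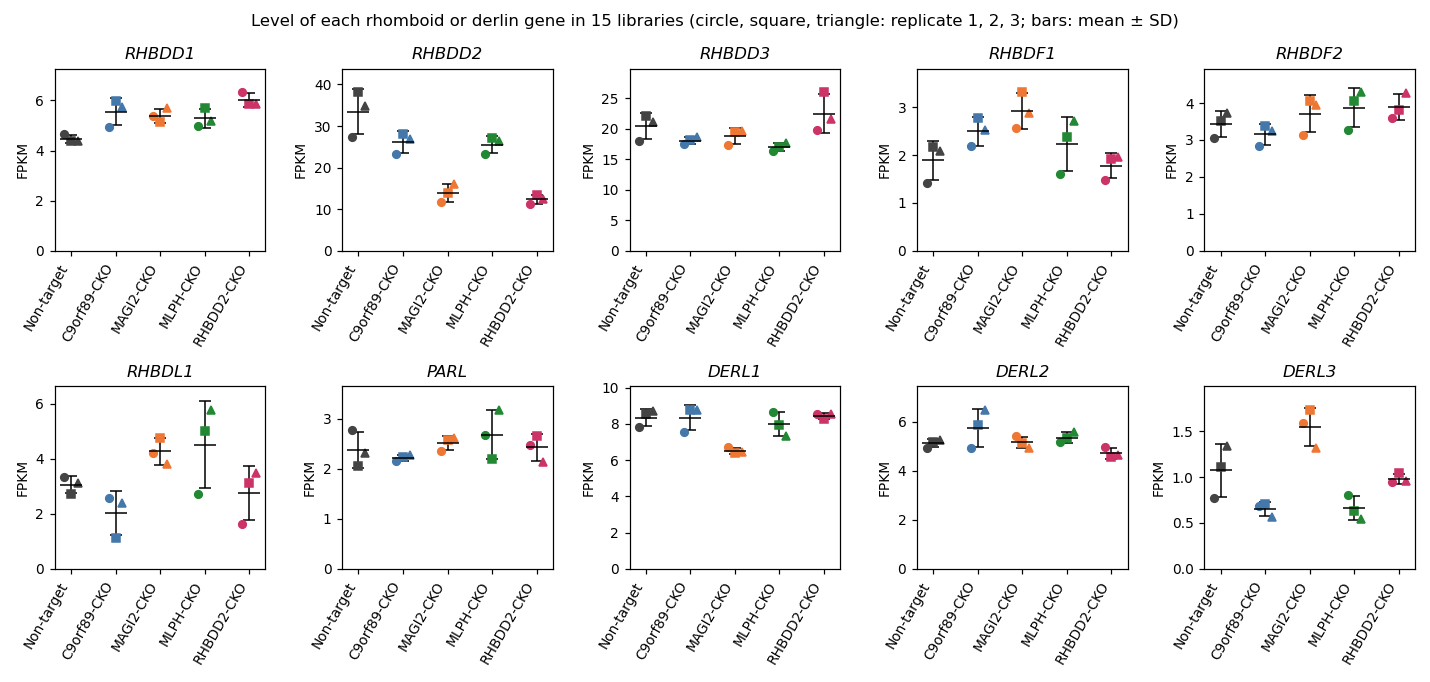
FPKM (y axis, from 0) of each of the 10 genes in the 3 libraries of each group (x axis), with circles, squares and triangles for replicates 1, 2 and 3 and bars for the mean and SD. RHBDD2 lies at 11.2 to 16.0 FPKM in RHBDD2-CKO and MAGI2-CKO and at 23.2 FPKM or more elsewhere, while RHBDD1 is lowest in Non-target.

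The genes around RHBDD2 on chromosome 7 differed between the clones in which it was low. In RHBDD2-CKO the 20 tested genes nearest to RHBDD2, within 0.707 Mb, had a median log2 fold change of −0.11 against Non-target, and 2 passed the threshold upward and 2 downward. Of all genes tested, 17.4% passed upward and 16.7% downward in that comparison. None of the 20 fell as far as RHBDD2. In MAGI2-CKO the median of the same 20 genes was −0.50, with 11 lower and 1 higher, where 19.1% of all genes tested were lower and 17.0% higher. Among the 100 nearest genes, within 10.8 Mb, 55 were lower and 3 higher in MAGI2-CKO, with a median of −0.51, against 9 lower and 6 higher in RHBDD2-CKO, with a median of 0.04. In MAGI2-CKO 4 of those 100 genes had a log2 fold change below that of RHBDD2. Compared directly, 55 of the 100 were higher in RHBDD2-CKO than in MAGI2-CKO and 3 were lower, with a median of 0.56. Between these clones 41.6% of all genes tested passed in either direction. MAGI2 itself (ENSG00000187391) lies on the same chromosome, on the minus strand from 78017057 to 79453574, which leaves 2.13 Mb between its end and RHBDD2.

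The lower levels in MAGI2-CKO reached far beyond RHBDD2. Of 255 tested genes that start over 20 Mb before it, 90.6% had a log2 fold change below 0, with a median of −0.64. Within 20 Mb the medians were −0.48 over 94 genes before RHBDD2 and −0.59 over 75 genes after it. Past that distance the median of 378 genes was −0.08, but this stretch was uneven. SLC25A13, PSMC2 and MET, 20.3, 27.5 and 40.8 Mb after RHBDD2, were still at −0.71, −0.69 and −0.96. IMMP2L, 34.8 Mb after it, was at 0.36. TNPO3, MKLN1 and BRAF, 53.1, 55.3 and 64.9 Mb after it, were at −0.01, −0.04 and 0.17. All of these genes were named after their values were seen, and where the low stretch ends was not tested. In RHBDD2-CKO the same 4 stretches had medians of −0.01, 0.04, 0.15 and −0.10. The last one was uneven there too. PDIA4, ATP6V0E2 and TMUB1, which are described below, lie 73.2, 74.0 and 75.2 Mb after RHBDD2 and were at −0.49, −0.60 and −0.61. HIPK2 and KMT2C, 63.7 and 76.3 Mb after it and named after their values were seen, were at 0.23 and 0.45. In MAGI2-CKO the genes before RHBDD2 and a stretch after it were low together with it, and in RHBDD2-CKO their medians lay near 0. The part of these stretches in the level of RHBDD2, or of the other genes named, was not tested.

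The closest tested neighbours showed the same contrast. POR, cytochrome P450 reductase, starts 56.6 kb past the start of RHBDD2 and was at 19.2 FPKM in Non-target, 17.3 in RHBDD2-CKO and 10.2 in MAGI2-CKO. Its log2 fold change was −0.14 in RHBDD2-CKO (adjusted p = 0.565) and −0.91 in MAGI2-CKO (adjusted p = 0.00101). MDH2, mitochondrial malate dehydrogenase, went from 135 FPKM in Non-target to 114 in RHBDD2-CKO (adjusted p = 0.275) and 73.4 in MAGI2-CKO (adjusted p = 0.000741). TMEM120A fell in both, by 0.47 (adjusted p = 0.00343) and by 1.18 (adjusted p = 2.24e-06) on the log2 scale. STYXL1 rose by 0.62 in RHBDD2-CKO (adjusted p = 0.00139) and was at −0.25 in MAGI2-CKO (adjusted p = 0.113). On the other side, HIP1, PMS2P3 and POM121C fell in MAGI2-CKO, by 0.42, 0.85 and 0.54 on the log2 scale (adjusted p = 0.00586, 0.00183 and 0.000217), and none of them passed in RHBDD2-CKO (adjusted p = 0.58, 0.283 and 0.299). NSUN5P1, STAG3L1 and SNORA14A passed in neither clone. In C9orf89-CKO and MLPH-CKO the median of the 20 nearest genes was −0.14 and −0.01.

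**Figure D2:**
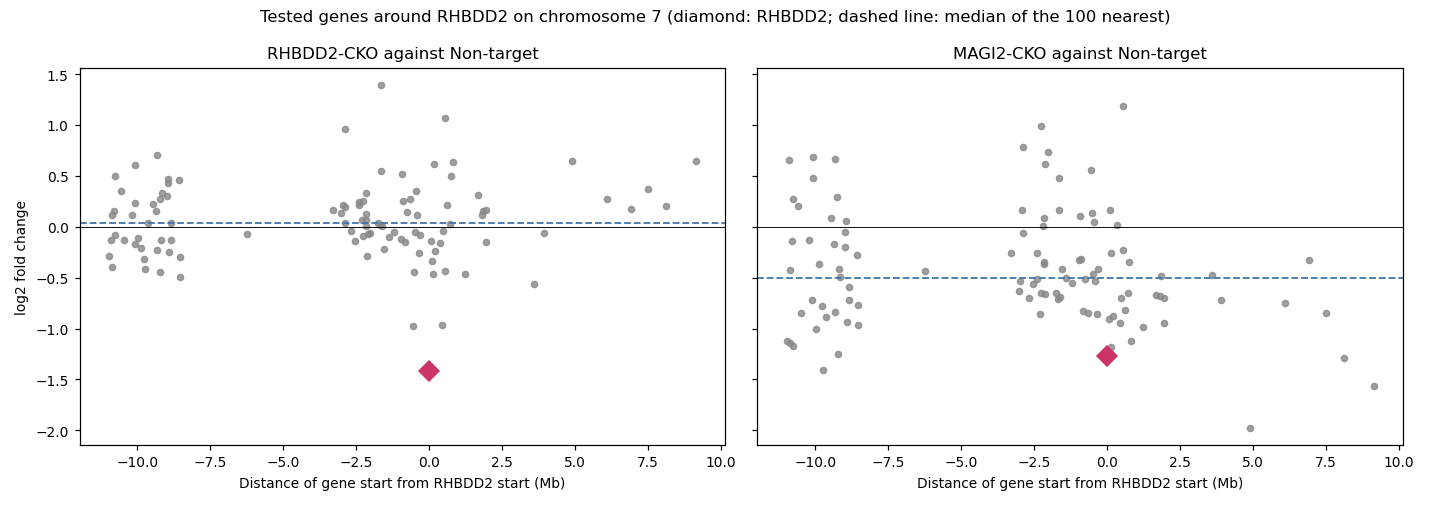
Log2 fold change against Non-target (y axis) of the tested genes around RHBDD2 by distance of their start from its start in Mb (x axis), in RHBDD2-CKO and MAGI2-CKO. The diamond is RHBDD2 and the dashed line is the median of the 100 nearest genes, at 0.04 in RHBDD2-CKO and −0.51 in MAGI2-CKO.

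Of the 9 relatives, 1 rose and none fell in RHBDD2-CKO against Non-target by limma, beside 34.1% of all genes tested that passed the threshold (17.4% higher and 16.7% lower). At an unadjusted p under 0.05 the same single gene passed. With the replicate number as a block, RHBDF2 passed as well, so that 2 of the 9 rose, beside 43.5% of all genes tested that passed in that fit. The median log2 fold change of the 9 was 0.02, and that of all genes tested was 0.00. The gene that rose was RHBDD1, also called RHBDL4, an active rhomboid protease of the endoplasmic reticulum that cuts ubiquitinated membrane proteins on their way to ERAD.

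RHBDD1 was at 4.66, 4.38 and 4.39 FPKM in Non-target and at 6.32, 5.84 and 5.84 FPKM in RHBDD2-CKO. The groups were clearly separate. The rise was 1.33-fold (95% confidence interval 1.18 to 1.5), or 0.41 on the log2 scale (SE 0.08, adjusted p = 0.00152). With the libraries numbered 1 left out it was 0.40 (adjusted p = 0.00381), and the call held under all 25 alternatives computed.

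The rise of RHBDD1 was not seen in RHBDD2-CKO alone. The gene was at 4.95, 5.96 and 5.74 FPKM in C9orf89-CKO, at 5.36, 5.13 and 5.68 FPKM in MAGI2-CKO and at 4.97, 5.69 and 5.17 FPKM in MLPH-CKO. Every one of these 9 libraries lay above the 3 Non-target libraries. RHBDD1 exceeded its Non-target level by 0.30 on the log2 scale in C9orf89-CKO, by 0.26 in MAGI2-CKO and by 0.23 in MLPH-CKO (adjusted p = 0.0139, 0.0204 and 0.044 in that order), all measured against the same Non-target wells. When RHBDD2-CKO was compared with these clones instead, RHBDD1 differed by 0.11 against C9orf89-CKO (95% confidence interval −0.06 to 0.29, adjusted p = 0.32), by 0.15 against MAGI2-CKO (−0.02 to 0.32, adjusted p = 0.145) and by 0.18 against MLPH-CKO (0.01 to 0.36, adjusted p = 0.087). None of the 3 passed the threshold, although the last did so without C9orf89-CKO library 1 (adjusted p = 0.0493). The calls in the other clones were also less firm than that in RHBDD2-CKO, and were lost with any of 2 single libraries left out in C9orf89-CKO (adjusted p up to 0.0635), any of 3 in MAGI2-CKO (up to 0.0781) and any of 10 in MLPH-CKO (up to 0.17). With the 6 libraries of the comparison alone, the call was lost in C9orf89-CKO and MLPH-CKO (adjusted p = 0.0637 and 0.0857). In MLPH-CKO it was also lost with no filter on low values, quantile normalization or limma without the trend (adjusted p = 0.068, 0.0602 and 0.0502). With all libraries numbered 1 left out they passed, at 0.41, 0.29 and 0.30 on the log2 scale (adjusted p = 0.00528, 0.0154 and 0.0161). The 20 tested genes nearest to RHBDD1 on chromosome 2 had a median of 0.07 in RHBDD2-CKO and −0.12 in MAGI2-CKO.

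RHBDD3, which carries a ubiquitin-associated domain behind its rhomboid part, was the next most abundant member after RHBDD2. It was at 18.0, 22.1 and 21.1 FPKM in Non-target and at 19.8, 26.0 and 21.6 FPKM in RHBDD2-CKO. The ranges overlapped and the difference was 0.14 on the log2 scale (adjusted p = 0.317), an interval of 0.948 to 1.27 as a fold. With RHBDD2 down, RHBDD3 became the most abundant of the 10 genes in RHBDD2-CKO and MAGI2-CKO. Its lowest levels were in MLPH-CKO, at 16.4, 17.0 and 17.7 FPKM, and it was higher in RHBDD2-CKO than in MLPH-CKO by 0.39 (adjusted p = 0.00698) and than in C9orf89-CKO by 0.31 (adjusted p = 0.0318) on the log2 scale. Against MAGI2-CKO the difference of 0.25 did not pass (adjusted p = 0.0565). It passed with the replicate number as a block (0.25, adjusted p = 0.00895), quantile normalization (0.27, adjusted p = 0.0375) and voom (0.25, adjusted p = 0.0475), and without Non-target library 1 (0.25, adjusted p = 0.0384) or RHBDD2-CKO library 1 (0.34, adjusted p = 0.0182). The call against C9orf89-CKO was lost with any of 5 single libraries left out (adjusted p up to 0.134), with no filter on low values (adjusted p = 0.0551) and with the 6 libraries alone (adjusted p = 0.0874). With all libraries numbered 1 left out RHBDD3 was higher in RHBDD2-CKO than in MAGI2-CKO by 0.28 (adjusted p = 0.0238), than in C9orf89-CKO by 0.37 (adjusted p = 0.00953) and than in MLPH-CKO by 0.45 (adjusted p = 0.00344). The genes nearest to RHBDD3 on chromosome 22 were themselves higher in RHBDD2-CKO than in Non-target, with a median of 0.24 over 20 genes (8 higher, 0 lower) and 0.30 over 100 genes (44 higher, 4 lower). Of all genes tested, 17.4% were higher and 16.7% lower in that comparison. The part of the chromosome 22 stretch in the level of RHBDD3 was not tested.

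RHBDF1 and RHBDF2 encode the iRhoms, inactive rhomboids that carry the protease ADAM17 to the cell surface. RHBDF1 was at 1.42, 2.16 and 2.08 FPKM in Non-target and at 1.48, 1.91 and 1.95 FPKM in RHBDD2-CKO, with a log2 fold change of −0.07 (adjusted p = 0.836). Its mean was highest in MAGI2-CKO, at 2.56, 3.31 and 2.87 FPKM. There it rose by 0.62 over Non-target on the log2 scale (SE 0.20, adjusted p = 0.0287) and it was lower in RHBDD2-CKO than in MAGI2-CKO by −0.68 (adjusted p = 0.0151). The latter call was lost without MAGI2-CKO library 2 (−0.59, adjusted p = 0.0619) or RHBDD2-CKO library 1 (−0.56, adjusted p = 0.0618). The rise was lost without Non-target library 1 (0.43, adjusted p = 0.117), MAGI2-CKO library 2 (0.52, adjusted p = 0.106) or MAGI2-CKO library 3 (0.62, adjusted p = 0.0634) and with no filter on low values (adjusted p = 0.054), and held with all libraries numbered 1 left out (0.52, adjusted p = 0.00748). RHBDF2 was at 3.05, 3.52 and 3.72 FPKM in Non-target and at 3.60, 3.81 and 4.28 FPKM in RHBDD2-CKO. The ranges overlapped, with a fold of 1.13 (95% confidence interval 0.936 to 1.37) and an adjusted p of 0.301, and RHBDF2 passed the threshold in none of the 4 comparisons with Non-target. With the replicate number as a block, its rise in RHBDD2-CKO of 0.18 on the log2 scale passed (adjusted p = 0.045). Of the 25 alternatives the block was the only one in which it did, and without the libraries numbered 1 it was 0.16 (adjusted p = 0.16).

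RHBDL1, a human relative of the fly protease Rhomboid-1, was the most variable member. It ranged from 1.12 to 5.76 FPKM over the 15 libraries, on 38 to 199 fragments. In RHBDD2-CKO it was at 1.64, 3.13 and 3.49 FPKM against 3.34, 2.71 and 3.12 FPKM in Non-target, and the interval of its fold, 0.519 to 1.44, was the widest of the 9. The smallest change that could be detected at this spread was not tested. With all 15 libraries RHBDL1 passed the threshold in none of the comparisons with Non-target and in none of those with RHBDD2-CKO. With the libraries numbered 1 left out, its difference between RHBDD2-CKO and Non-target turned from −0.21 to 0.18 on the log2 scale (adjusted p = 0.678 and 0.654), and it was higher in RHBDD2-CKO than in C9orf89-CKO by 0.97 (adjusted p = 0.0368), from 0.44 (adjusted p = 0.384) with all libraries. Without MLPH-CKO library 1 it was lower in RHBDD2-CKO than in MLPH-CKO by −1.01 (adjusted p = 0.0383), and with the 6 libraries of the comparison alone it was higher in MAGI2-CKO than in Non-target by 0.47 (adjusted p = 0.0298).

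PARL, the rhomboid protease of the inner mitochondrial membrane, was at 2.77, 2.05 and 2.31 FPKM in Non-target and at 2.48, 2.66 and 2.14 FPKM in RHBDD2-CKO. The fold was 1.02, with a 95% confidence interval of 0.836 to 1.25, and its adjusted p was 0.884. PARL passed the threshold in none of the 4 clones against Non-target. Its level is uncertain, because 47.2% of its exon bases also belong to AC131160.1, a gene on the same strand, and fragments there could not be assigned to a single gene.

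The derlins DERL1, DERL2 and DERL3 are ERAD components of the endoplasmic reticulum. DERL1 was among the steadiest members, at 7.82, 8.55 and 8.70 FPKM in Non-target and at 8.53, 8.27 and 8.54 FPKM in RHBDD2-CKO, a fold of 1.01 (95% confidence interval 0.904 to 1.13). In MAGI2-CKO it was at 6.71, 6.42 and 6.44 FPKM, below every library of the other groups. It fell there by 0.35 on the log2 scale (SE 0.07, adjusted p = 0.00265), and was higher in RHBDD2-CKO than in MAGI2-CKO by 0.37 (adjusted p = 0.00158). The clones with the lowest RHBDD2 thus differed in DERL1. The 20 tested genes nearest to DERL1 had a median of −0.11 in MAGI2-CKO.

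DERL2 was at 4.93, 5.18 and 5.23 FPKM in Non-target and at 4.97, 4.54 and 4.62 FPKM in RHBDD2-CKO, a log2 fold change of −0.12 (adjusted p = 0.33). It was lower in RHBDD2-CKO than in C9orf89-CKO by −0.27 (adjusted p = 0.031), a call lost with any of 4 single libraries left out (adjusted p up to 0.137), with no filter (adjusted p = 0.0502) and with the 6 libraries alone (adjusted p = 0.137). DERL3 was the least abundant of the 10 genes, with 36 to 127 fragments per library. Its level was 0.771, 1.11 and 1.34 FPKM in Non-target and 0.943, 1.04 and 0.955 FPKM in RHBDD2-CKO, and the difference of −0.09 on the log2 scale did not pass (adjusted p = 0.759). In the other clones DERL3 went in both directions, up by 0.51 on the log2 scale in MAGI2-CKO (adjusted p = 0.0499) and at −0.61 in both C9orf89-CKO and MLPH-CKO (adjusted p = 0.0299 and 0.0278). Without the libraries numbered 1 these were 0.29 (adjusted p = 0.272), −0.85 (adjusted p = 0.0142) and −0.94 (adjusted p = 0.00775). The call in MAGI2-CKO was lost with any of 11 single libraries left out (adjusted p up to 0.196), that in C9orf89-CKO with any of 5 (up to 0.129) and that in MLPH-CKO with any of 4 (up to 0.123). All 3 were lost with no filter on low values (adjusted p = 0.0968, 0.0605 and 0.0569 in that order) and with the 6 libraries alone (adjusted p = 0.123, 0.106 and 0.128). The rise in MAGI2-CKO was also lost with a pseudocount of 0.01, quantile normalization or the replicate block (adjusted p = 0.0572, 0.107 and 0.0544). DERL3 was lower in RHBDD2-CKO than in MAGI2-CKO by −0.60 (adjusted p = 0.0214) and higher than in MLPH-CKO by 0.52 (adjusted p = 0.0467). The first of these calls was lost with any of 4 single libraries left out (adjusted p up to 0.0815). The second was lost with any of 11 (up to 0.16) and with a pseudocount of 1, no filter on low values, the 6 libraries alone, the replicate block or voom (adjusted p = 0.0653, 0.0933, 0.0659, 0.0514 and 0.056). Like RHBDD3 it lies on chromosome 22, and its 20 nearest tested genes had a median of 0.52 in RHBDD2-CKO and 0.44 in MAGI2-CKO. In RHBDD2-CKO 8 of them were higher and 0 lower, beside 17.4% and 16.7% of all genes tested. DERL3 is also uncertain in level, since 77.0% of its exon bases overlap SMARCB1 on the opposite strand and the strand setting of the counting is not given in the sources used here.

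**Figure D3:**
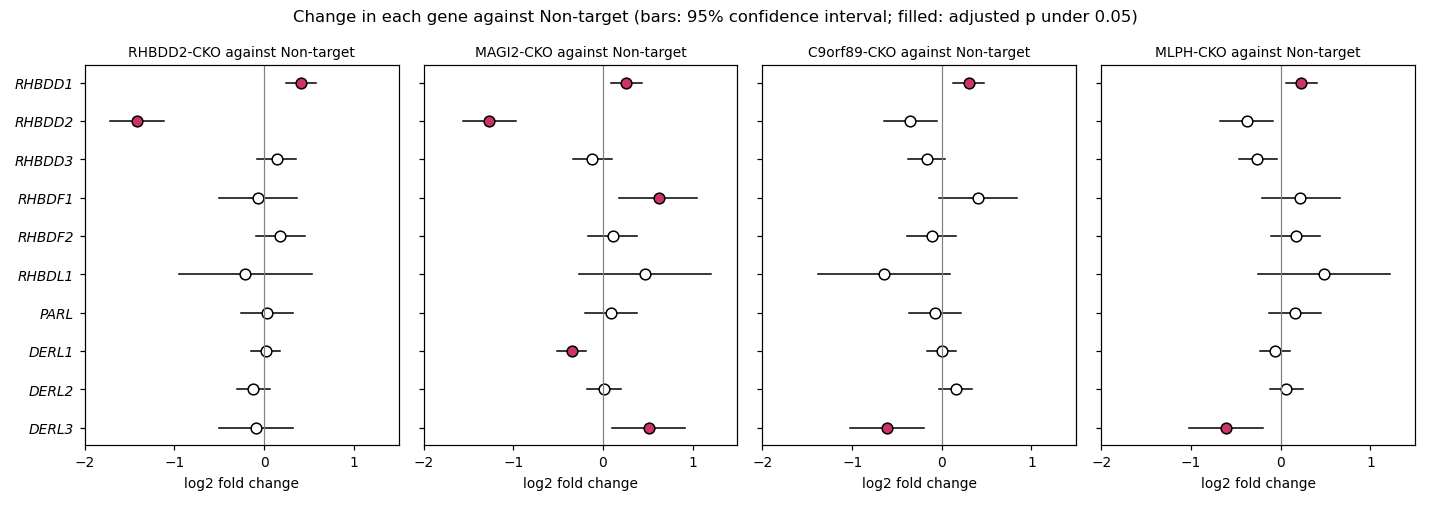
Log2 fold change against Non-target (x axis) of the 10 genes in each of the 4 clones, with 95% confidence intervals as bars and filled circles for an adjusted p under 0.05. RHBDD1 lies to the right of 0 in all 4 panels, and RHBDD2 lies furthest to the left in RHBDD2-CKO and MAGI2-CKO.

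Relatives past the threshold were also counted in the other clones, and differences between these counts were not tested. In MAGI2-CKO 3 of 9 rose and 1 fell, beside 36.1% of all genes tested that passed (17.0% up and 19.1% down). In C9orf89-CKO 1 rose and 1 fell, beside 26.0% (12.9% up and 13.1% down), and in MLPH-CKO 1 rose and 1 fell, beside 30.1% (14.5% up and 15.5% down). With the replicate number as a block, 3 of 9 passed in each of MAGI2-CKO, C9orf89-CKO and MLPH-CKO, beside 44.3%, 35.4% and 38.9%. When RHBDD2-CKO was set against the other clones, 3 of 9 passed against MAGI2-CKO (background 41.6%), 2 of 9 against C9orf89-CKO (background 29.3%) and 2 of 9 against MLPH-CKO (background 37.0%). None of the 10 genes was set apart one way from all 4 other groups at once, which 11.5% of all genes tested did, and none did at an unadjusted p under 0.05 either. With 9 genes, 1 call moves such a share by 11.1 percentage points. With the libraries numbered 1 left out, further calls appeared, and the share of all genes tested that passed rose as well, to between 32.4% and 45.8% over these 7 comparisons. RHBDF1 was then lower in RHBDD2-CKO than in C9orf89-CKO (−0.44, adjusted p = 0.0182) and MLPH-CKO (−0.38, adjusted p = 0.029), RHBDF2 was higher than in C9orf89-CKO (0.28, adjusted p = 0.0302) and DERL2 was lower than in MLPH-CKO (−0.24, adjusted p = 0.0224). Against Non-target, DERL2 was higher in C9orf89-CKO (0.24, adjusted p = 0.0302), while RHBDD3 and DERL1 were lower in MLPH-CKO (−0.32 and −0.17, adjusted p = 0.0182 and 0.0428).

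Summed over the 9 relatives, the level was 46.8, 51.7 and 52.0 FPKM in Non-target and 49.8, 57.2 and 53.4 FPKM in RHBDD2-CKO. The ranges overlapped. In difference of means, RHBDD2 lost 21.1 FPKM in RHBDD2-CKO, RHBDD1 gained 1.52 FPKM, which is 7.2% of that loss, and the 9 relatives together differed by 3.31 FPKM, or 15.7% of it. The largest part of this sum, 2.08 FPKM, came from RHBDD3, whose change did not pass the test. As a share of the summed level of all 10 genes, RHBDD2 made up 39.8% ± 2.77 in Non-target (SD, n = 3) and 18.8% ± 0.405 in RHBDD2-CKO, with 21.3% ± 2.26 in MAGI2-CKO, 35.0% ± 1.42 in C9orf89-CKO and 33.9% ± 0.945 in MLPH-CKO.

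**Figure D4:**
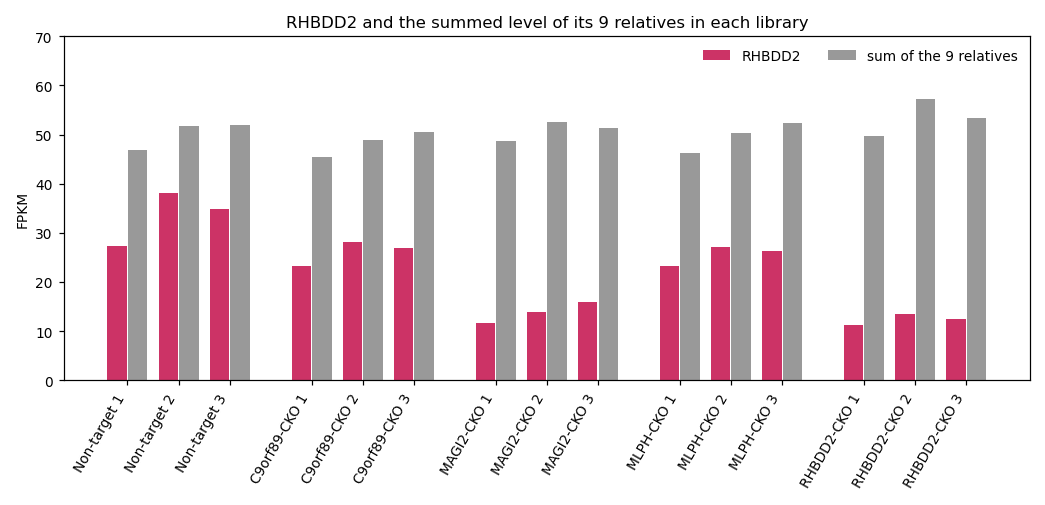
FPKM (y axis, from 0) of RHBDD2 and the summed FPKM of its 9 relatives in each of the 15 libraries (x axis). The sum of the relatives runs from 45.4 to 57.2 FPKM, while RHBDD2 runs from 11.2 to 38.1 FPKM.

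A further 4 human genes of the superfamily lie outside the 10. RHBDL2 was nearly absent, with 0 to 6 fragments in a library, and was not tested. UBAC2, an inactive rhomboid of the endoplasmic reticulum that takes part in ERAD, fell in RHBDD2-CKO. It was at 12.0, 14.7 and 14.2 FPKM in Non-target and at 9.35, 10.1 and 10.3 FPKM in RHBDD2-CKO, a log2 fold change of −0.45 (SE 0.09, adjusted p = 0.00222). UBAC2 was also lower in RHBDD2-CKO than in MAGI2-CKO (−0.34, adjusted p = 0.00914), C9orf89-CKO (−0.45, adjusted p = 0.00229) and MLPH-CKO (−0.36, adjusted p = 0.00702), and it differed from Non-target in none of those 3 clones. TMEM115, a rhomboid-like protein of the Golgi, was at 29 ± 1.99 FPKM in RHBDD2-CKO and 35.0 ± 4.02 FPKM in Non-target (SD, n = 3, adjusted p = 0.117), and it fell in C9orf89-CKO by 0.49 on the log2 scale (adjusted p = 0.01). RHBDL3 was at 2.17 ± 0.260 FPKM and 2.51 ± 0.304 FPKM (adjusted p = 0.284), and fell by 0.98 to 1.22 ± 0.0897 FPKM in MAGI2-CKO (adjusted p = 0.000117) and by 0.54 in C9orf89-CKO (adjusted p = 0.0109), both on the log2 scale.

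Genes that work with these proteins were examined as lists. Of 33 ERAD genes, 8 rose and 7 fell in RHBDD2-CKO against Non-target, which is 45.5% beside the 34.1% of all genes tested, and their median log2 fold change was 0.01. FAM8A1, a cofactor of the ubiquitin ligase HRD1, was at 20.9, 19.4 and 21.3 FPKM in Non-target and at 30.5, 33.1 and 32.1 FPKM in RHBDD2-CKO. It rose 1.55-fold (log2 0.63, SE 0.06, adjusted p = 1.2e-05), whereas in MAGI2-CKO, C9orf89-CKO and MLPH-CKO it fell (−0.49, −0.36 and −0.31, adjusted p = 7.17e-05, 0.00133 and 0.00285). YOD1, a deubiquitinase that works with the ATPase VCP, rose 1.38-fold (adjusted p = 0.001), and so did UBE2J2, a ubiquitin-conjugating enzyme of the endoplasmic reticulum (adjusted p = 0.00192). UBE2J2 also rose in the other 3 clones, by 0.42 on the log2 scale in MAGI2-CKO and in MLPH-CKO (adjusted p = 0.00309 and 0.00398) and by 0.39 in C9orf89-CKO (adjusted p = 0.00746).

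The ERAD genes with the largest falls were SELENOK, BCAP31 and TMUB1. SELENOK, a selenoprotein that binds derlins, went from 26.8, 24.7 and 22.8 FPKM in Non-target to 16.8, 12.5 and 11.5 FPKM in RHBDD2-CKO, a log2 fold change of −0.88 (SE 0.14, adjusted p = 0.00037). BCAP31, a chaperone and sorting receptor of the endoplasmic reticulum, went from 91.6, 106 and 101 FPKM to 62.2, 61.0 and 58.6 FPKM (−0.71, SE 0.07, adjusted p = 5.68e-06). TMUB1 fell by 0.61 on the log2 scale (adjusted p = 0.000578). The groups did not overlap for any of these genes.

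Several further parts of the machinery were examined by name. VCP, which pulls proteins out of the membrane, was at −0.08 on the log2 scale (adjusted p = 0.527). UFD1, a cofactor of VCP named after its values were seen, was at 7.59 to 8.17 FPKM in Non-target and 9.52 to 10.3 FPKM in RHBDD2-CKO, and rose by 0.34 (adjusted p = 0.00139). SEL1L and SYVN1, which form the HRD1 complex, were at 0.15 (adjusted p = 0.126) and 0.29 (adjusted p = 0.167). SYVN1 passed with the libraries numbered 1 left out (0.40, adjusted p = 0.00373), without RHBDD2-CKO library 1 (0.44, adjusted p = 0.0342) and with the replicate block (0.29, adjusted p = 0.0326). HERPUD1, which recruits derlins to HRD1, fell by 0.36 (adjusted p = 0.00738), and SELENOS, a further derlin-binding selenoprotein, fell by 0.27 (adjusted p = 0.015, up to 0.0697 with any of 3 single libraries left out). Set against all 4 other groups at once, 4 ERAD genes were higher in RHBDD2-CKO (FAM8A1, YOD1 and, named after their values were seen, EDEM3 and MARCHF6) and 4 were lower (SELENOK, BCAP31, TMUB1 and HERPUD1), beside 5.61% and 5.88% of all genes tested.

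The ERAD list was counted in the other clones too. In MAGI2-CKO 1 of its genes rose and 11 fell, in C9orf89-CKO 1 rose and 7 fell, and in MLPH-CKO 3 rose and 6 fell. The medians were −0.10, −0.08 and −0.04. These calls made up 36.4%, 24.2% and 27.3% of the list, near the 36.1%, 26.0% and 30.1% of all genes tested. Of all genes tested, 17.0%, 12.9% and 14.5% rose and 19.1%, 13.1% and 15.5% fell in these clones. The balance of rises and falls on the list was not tested. Of 20 genes of the unfolded protein response, the programme that raises chaperones when folding in the endoplasmic reticulum fails, 2 rose and 2 fell in RHBDD2-CKO (20% beside 34.1%), with a median of −0.09. HSPA5, the main chaperone of that programme, was at −0.08 (adjusted p = 0.347). HYOU1 rose by 0.24 (adjusted p = 0.00173) and DNAJB9 by 0.33 (adjusted p = 0.0167), both chaperones or cochaperones, while the disulfide isomerase PDIA4 fell by 0.49 (adjusted p = 4.59e-05) and the secreted factor MANF by 0.67 (adjusted p = 0.0178). DNAJB9 and MANF lost the call with any of 2 and 3 single libraries left out (adjusted p up to 0.0776 and 0.0749).

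For the iRhoms, 14 of 21 listed partners and substrates were tested, and 2 rose and 2 fell in RHBDD2-CKO (28.6% beside 34.1% of all genes tested), with a median of 0.10. With the replicate number as a block 8 of the 14 passed, beside 43.5% of all genes tested. With 1 library left out 2 to 5 passed. ADAM17 was at 0.15 (adjusted p = 0.178) and FRMD8, which stabilises the iRhom complex, at 0.05 (adjusted p = 0.847). ADAM10, a related sheddase, rose by 0.36 (adjusted p = 0.00343). The receptor ERBB3 was at 0.379, 0.386 and 0.303 FPKM in Non-target and at 1.72, 1.59 and 1.97 FPKM in RHBDD2-CKO, a log2 fold change of 2.03 on log2(FPKM + 0.1) (adjusted p = 1.27e-06). With a pseudocount of 1 in place of 0.1 it was 1.02. ERBB3 also rose in MLPH-CKO (1.67, adjusted p = 6.98e-06), C9orf89-CKO (1.28, adjusted p = 7.65e-05) and MAGI2-CKO (0.62, adjusted p = 0.00806). ERBB2 fell by 0.30 (adjusted p = 0.0391), a call that was lost with any of 5 single libraries left out (adjusted p up to 0.147). The other gene of the list that fell was STING1, an adaptor of DNA sensing, by 0.93 (adjusted p = 0.026), named after its values were seen.

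For PARL, 13 of 15 listed substrates and neighbours in mitochondria were tested, and 4 fell and none rose (30.8% beside 34.1% of all genes tested, or 16.7% that fell), with a median of −0.11. HAX1 fell by 0.39 (adjusted p = 0.00358), the prohibitin PHB2 by 0.33 (adjusted p = 0.0248), STOML2 by 0.25 (adjusted p = 0.011) and the phosphatase PGAM5, a PARL substrate, by 0.24 (adjusted p = 0.037). Under quantile normalization PHB2, STOML2 and PGAM5 were at −0.12, −0.04 and −0.09 and no longer passed (adjusted p = 0.483, 0.746 and 0.449). They were also lost with any of 4, 1 and 5 single libraries left out (adjusted p up to 0.11, 0.0526 and 0.15). The PARL substrates PINK1 and STARD7 were at 0.13 (adjusted p = 0.276) and 0.01 (adjusted p = 0.907). DIABLO has 2 overlapping entries in the annotation and was not tested.

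**Figure D5:**
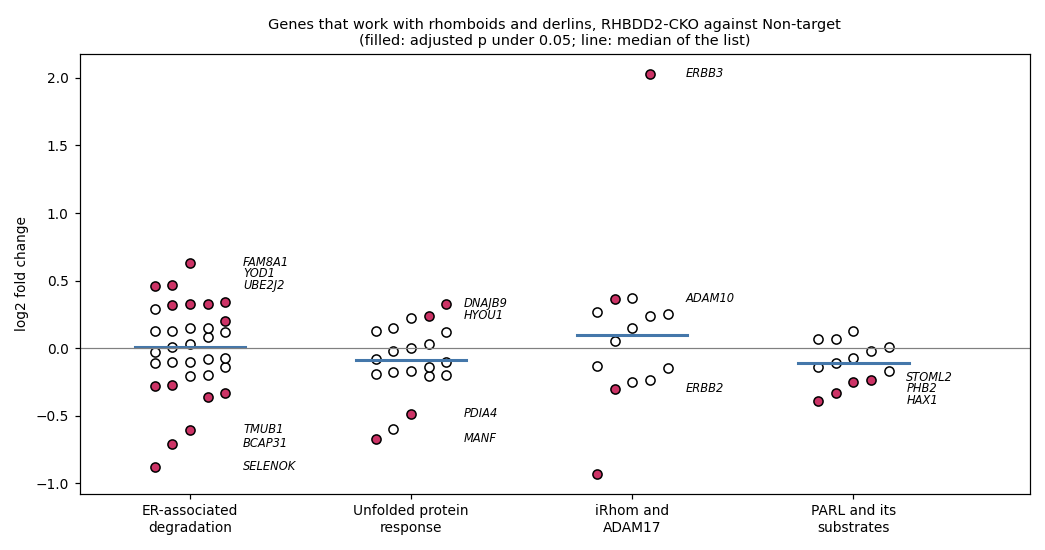
Log2 fold change (y axis) in RHBDD2-CKO against Non-target of the tested genes of 4 lists (x axis), filled where the adjusted p is under 0.05, with a line at the median of each list. Medians lie between −0.11 and 0.10, FAM8A1 and ERBB3 stand highest in their lists and SELENOK lies lowest among the ERAD genes.

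Over the 15 libraries the genes whose log2(FPKM + 0.1) followed RHBDD2 most closely, out of 12532 other genes with a mean of at least 1 FPKM, were ATP6V0E2 (Pearson r = 0.959), PRKCD (0.958), LAMA1 (0.955), DPP3 (0.953) and TMEM47 (0.949). These values describe 5 clones with 3 wells each and share library depth and library number. ATP6V0E2, a subunit of the proton pump of acidic organelles, lies on chromosome 7 as RHBDD2 does, and had group means of 21.9 FPKM in Non-target, 14.8 in MAGI2-CKO and 14.4 in RHBDD2-CKO. The other 4 lie on other chromosomes. Of the 50 closest genes, 5 were on chromosome 7, which holds 4.86% of the genes compared. Among the 8 relatives at that level r ran from −0.62 for RHBDD1 to 0.46 for DERL2.

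CXCL12, a chemokine, and the other targeted genes give the setting of these clones. CXCL12 was at 3.06, 3.13 and 3.23 FPKM in RHBDD2-CKO and at 0.868 to 1.2 FPKM in MAGI2-CKO. It was at 0.618 to 0.758 FPKM in C9orf89-CKO and at 0.210 to 0.243 FPKM in MLPH-CKO, and had 1 or 2 fragments in each Non-target library. A relation between CXCL12 and RHBDD2 across the clones was not tested. C9orf89, listed as CARD19, was at 4.32 ± 0.0421 FPKM in its own clone, 4.79 ± 0.339 in RHBDD2-CKO and 6.56 ± 1.04 in Non-target (SD, n = 3). MAGI2 had 32 to 68 fragments in any library and MLPH had 0 in all 15, which allows up to 3 fragments in each.

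Genes typical of HEK293T cells were found in every group, fewest in RHBDD2-CKO. Of 10 such genes, 6 reached a mean of 1 FPKM in RHBDD2-CKO, compared with 8 for MAGI2-CKO and 9 for each of the remaining groups. Their summed level was lowest in RHBDD2-CKO, at 84.0 to 91.5 FPKM, and was 125 to 141 FPKM for MAGI2-CKO and 136 to 140 FPKM for Non-target. It was higher for C9orf89-CKO, at 151 to 153 FPKM, and highest for MLPH-CKO, at 195 to 199 FPKM. VIM was the most abundant of them in every group. Its mean was 47.0 FPKM in RHBDD2-CKO, 45.2 FPKM in Non-target and 68.8 to 82.2 FPKM in the other clones. In RHBDD2-CKO the genes below 1 FPKM were NEFL, LHX1 at 0.452 ± 0.0499 FPKM, EYA1 at 0.845 ± 0.156 FPKM and PAX2 at 0.652 ± 0.0831 FPKM, and PAX2 was below it in Non-target as well, at 0.720 ± 0.258 FPKM (SD, n = 3). The neurofilament genes NEFL and NEFM account for most of the gap between RHBDD2-CKO and Non-target, at 0.984 ± 0.131 and 1.34 ± 0.482 FPKM in RHBDD2-CKO against 18.8 ± 1.91 and 27.2 ± 9.71 FPKM in Non-target (SD, n = 3). NEFM was also low in MAGI2-CKO, at 0.0274 ± 0.0378 FPKM. Of 10 genes of the monocytic line U937, with which the study cocultured its clones, none reached 1 FPKM, and their sum was at most 0.629 FPKM in any library, with MPO at 0 throughout. Of 10 stromal genes, COL1A1 was the most abundant, with group means of 2.43 to 4.75 FPKM, and the sum was 3.61 to 7.48 FPKM. The part of these marker differences in the changes of the rhomboid genes was not tested.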

How the data were processed

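RNA from 5 HEK293T clones, 3 wells each, was sequenced by the authors. Per the submitters' processing notes the tools included HISAT2 2.0.5, featureCounts 1.5.0-p3 and DESeq2. The genome build and the strand setting are not given in the sources used here. The authors deposited 1 FPKM value per gene and library, a unit that is not named in the files. Multiplied by the merged exon length of GENCODE v29 (all 58735 identifiers matched), 100% of values came out as whole fragments within 0.02, with 15517856 to 19489918 fragments per library (median 17666063). These fragments are not independent molecules, so limits set by counts cover counting error only.

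limma 3.58.1 in R 4.3.3 was fitted to log2(FPKM + 0.1) of the 16175 genes that reached 0.5 FPKM in 3 or more libraries, with all 15 libraries and 5 groups in 1 model and a mean-dependent prior (10 residual and 2.62 prior degrees of freedom). The p-values were adjusted by Benjamini-Hochberg over all genes tested within a comparison, at a threshold of 0.05. Fold changes are on the log2(FPKM + 0.1) scale and understate the change of low genes. The wells came from 1 clone each, so p-values measure only the spread between wells. A test on simulated data for RHBDD2-CKO against Non-target, with a log2 change of 1.5 in 200 of 16175 genes, recovered 184 with 10 false calls. The simulated libraries were drawn independently, without the offset of library 1. The planted change was larger than that of RHBDD1, at 0.41, and touched far fewer genes than the 34.1% that passed in the data. The simulation therefore does not give the error rates of the calls reported here.

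The 10 genes, the lists of partner and marker genes and the tests were chosen with earlier results of these data known. All members were named. From each partner list up to 3 rises and 3 falls with a mean of at least 1 FPKM were named, with VCP, SEL1L, SYVN1, HERPUD1, SELENOS, ADAM17, FRMD8, PINK1, PGAM5, DIABLO, STARD7 and HSPA5 in any case. To these were added the 5 nearest tested genes on each side of RHBDD2, the 5 genes most like it over the 15 libraries, CXCL12 and the other targeted genes. Neighbours were ranked by distance between gene starts. Alternatives were pseudocounts of 0.01 and 1, other filters on low values, quantile normalization, limma without the trend, the 6 libraries of a comparison alone, a replicate block, voom weights on recovered fragments, each library left out in turn and the libraries numbered 1 left out. The scripts ran in python 3.11.15 with scipy 1.17.1.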

Additional observations from a re-analysis of the deposited data

How the results depend on the processing

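The fall of RHBDD2 in RHBDD2-CKO and in MAGI2-CKO against Non-target kept its direction and passed the threshold under all 25 alternatives, as did the rise of RHBDD1 in RHBDD2-CKO. With 1 library left out, the log2 fold change of RHBDD2 lay between −1.56 and −1.32 in RHBDD2-CKO, −1.40 and −1.15 in MAGI2-CKO, −0.49 and −0.25 in C9orf89-CKO, and −0.52 and −0.28 in MLPH-CKO. RHBDD2-CKO differed from MAGI2-CKO by −0.27 to −0.04, from C9orf89-CKO by −1.15 to −1.0 and from MLPH-CKO by −1.11 to −0.97. MAGI2-CKO differed from C9orf89-CKO by −1.03 to −0.80 and from MLPH-CKO by −1.0 to −0.77. The smaller difference of C9orf89-CKO from Non-target passed with a replicate block (−0.35, adjusted p = 0.00236), with the libraries numbered 1 left out (−0.41, adjusted p = 0.00812) and without Non-target library 1 (−0.49, adjusted p = 0.0187). That of MLPH-CKO passed with a pseudocount of 1 (−0.37), a mean of at least 1 FPKM (−0.38), a replicate block (−0.38, adjusted p = 0.00119), voom (−0.38), the libraries numbered 1 left out (−0.45), and without Non-target library 1, C9orf89-CKO library 1, or MAGI2-CKO library 1 or 3 (adjusted p = 0.0128, 0.0495, 0.0392 and 0.0422).

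Counts of relatives past the threshold were less steady. With 1 library left out they were 1 in RHBDD2-CKO, 2 to 4 in MAGI2-CKO, 0 to 2 in C9orf89-CKO and 0 to 3 in MLPH-CKO against Non-target, and 1 to 4, 0 to 3 and 1 to 3 for RHBDD2-CKO against MAGI2-CKO, C9orf89-CKO and MLPH-CKO. The share of all genes tested is not given for those fits. Against Non-target, no filter on low values gave 2 in MAGI2-CKO, 1 in C9orf89-CKO and 0 in MLPH-CKO. Beside these, 17.9%, 12.3% and 14.4% of all genes tested passed. A mean of at least 1 FPKM gave 1 in C9orf89-CKO and in MLPH-CKO (beside 29.4% and 33.8%). The 6 libraries alone gave 0 in each (beside 20.4% and 22.1%). Quantile normalization and limma without the trend gave 1 in MLPH-CKO (beside 29.2% and 29.6%). RHBDD2-CKO against C9orf89-CKO gave 0 with no filter, 1 with the 6 libraries alone and 4 with the replicate block, beside 13.9%, 22.6% and 37.7% of all genes tested. RHBDD2-CKO against MLPH-CKO gave 1 with a pseudocount of 1, no filter, a mean of at least 1 FPKM, the 6 libraries alone or voom. In that order, 37.1%, 17.8%, 42.3%, 31.3% and 38.1% of all genes tested passed. With the libraries numbered 1 left out, the count was 4 in MLPH-CKO against Non-target (beside 36.9% of all genes tested), and in RHBDD2-CKO it was 5 against C9orf89-CKO (34.9%) and 4 against MLPH-CKO (39.4%). With 1 library left out, the lists in RHBDD2-CKO had 1 to 2 calls for the other superfamily genes, 10 to 16 for ERAD, 2 to 5 for the iRhom partners, 1 to 5 for the PARL partners and 3 to 6 for the unfolded protein response. The superfamily list had 2 with the replicate block or the libraries numbered 1 left out (beside 43.5% and 42.0% of all genes tested). The PARL list had 2 with no filter, quantile normalization or the 6 libraries alone (beside 16.4%, 33.0% and 25.7%). The unfolded protein response had 2 with the 6 libraries alone (beside 25.7%). The cause of the shifts in these counts was not tested.

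The wells were not treated as paired, because the labels tie the replicate numbers to no shared day or batch and only 12 of 30 pairs with the same number had a correlation over 0.1. The numbers were not without relation to the data. The median correlation was 0.0856 for pairs with the same number and −0.0887 for the 60 other pairs, and 11 of 15 libraries correlated best with their own number. The replicate block gave 7036 in place of 5511 calls among all genes in RHBDD2-CKO against Non-target (43.5% in place of 34.1%), 2 in place of 1 relatives (RHBDF2, 0.18, adjusted p = 0.045) and 8 in place of 4 iRhom partners. With the block, calls also appeared for RHBDF1 in C9orf89-CKO against Non-target (0.40, adjusted p = 0.0117) and in RHBDD2-CKO against C9orf89-CKO (−0.47, adjusted p = 0.00471) and MLPH-CKO (−0.29, adjusted p = 0.044), for RHBDF2 in RHBDD2-CKO against C9orf89-CKO (0.30, adjusted p = 0.00453), for RHBDD3 in MLPH-CKO against Non-target (−0.26, adjusted p = 0.0107) and in RHBDD2-CKO against MAGI2-CKO (0.25, adjusted p = 0.00895), and for SYVN1 in RHBDD2-CKO against Non-target (0.29, adjusted p = 0.0326). Those of DERL3 in MAGI2-CKO against Non-target and in RHBDD2-CKO against MLPH-CKO were lost (adjusted p = 0.0544 and 0.0514).

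With 100 neighbours in place of 20, the median around RHBDD2 was 0.04 in RHBDD2-CKO and −0.06 in C9orf89-CKO, around RHBDD1 0.00 in MAGI2-CKO and −0.04 in C9orf89-CKO, around RHBDD3 0.30 in RHBDD2-CKO and 0.11 in MAGI2-CKO, and around RHBDF2 0.11 in C9orf89-CKO. Around RHBDL1 it was −0.01, 0.05, −0.11 and 0.09 in RHBDD2-CKO, MAGI2-CKO, C9orf89-CKO and MLPH-CKO, and around PARL −0.01 in MAGI2-CKO. Around DERL1 it was −0.06 in RHBDD2-CKO and −0.04 in MLPH-CKO, around DERL2 0.19 in MAGI2-CKO and 0.09 in MLPH-CKO, and around DERL3 0.42, 0.23 and 0.12 in RHBDD2-CKO, MAGI2-CKO and MLPH-CKO.

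None of 42 named log2 fold changes past the threshold changed sign under an alternative. Of 58 not past it, 18 did, none of them past the threshold there (lowest adjusted p = 0.267), and so did 9 of the 40 neighbour medians. With the libraries numbered 1 left out, RHBDD2-CKO against Non-target turned to 0.18 for RHBDL1, −0.04 for DERL1, −0.02 for FRMD8 and −0.05 for STARD7, MAGI2-CKO against Non-target to −0.05 for DERL2, and C9orf89-CKO against Non-target to 0.05 for PARL and 0.02 for DERL1. RHBDD2-CKO turned to 0.00 for RHBDD1 and −0.06 for DERL1 against C9orf89-CKO and to −0.05 for RHBDF2 against MLPH-CKO. Quantile normalization gave −0.01 for PARL, 0.13 for HSPA5 and 0.11 for VCP in RHBDD2-CKO against Non-target. With 1 library left out, that comparison ran from −0.25 to 0.06 for RHBDF1, −0.41 to 0.12 for RHBDL1, −0.07 to 0.14 for PARL, −0.03 to 0.05 for DERL1, −0.29 to 0.07 for DERL3, −0.12 to 0.20 for FRMD8 and −0.04 to 0.04 for STARD7. Against Non-target, PARL ran from −0.01 to 0.20 in MAGI2-CKO and −0.18 to 0.03 in C9orf89-CKO, DERL1 from −0.05 to 0.07 in C9orf89-CKO and DERL2 from −0.03 to 0.04 in MAGI2-CKO. RHBDD2-CKO differed from MAGI2-CKO by −0.04 to 0.14 for RHBDF2 and −0.12 to 0.03 for PARL, from MLPH-CKO by −0.10 to 0.09 for RHBDF2 and from C9orf89-CKO by −0.05 to 0.05 for DERL1.

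Among the named partner genes in RHBDD2-CKO against Non-target, the 6 libraries alone ended the calls of DNAJB9, ERBB2, MANF, PGAM5, PHB2 and SELENOS (adjusted p = 0.0509, 0.0768, 0.0637, 0.107, 0.0834 and 0.0662), no filter those of ERBB2, PGAM5 and PHB2 (0.0665, 0.0643 and 0.0523) and limma without the trend that of ERBB2 (0.0508). STARD7 passed under quantile normalization (0.19, adjusted p = 0.0313). DERL3, RHBDL1 and PARL rested on 36 to 127, 38 to 199 and 72 to 132 fragments per library, the fewest among the 10 genes.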
